A study of Homo sapiens with 29 samples.

Results

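The mitogen-activated protein (MAP) kinase cascade and phosphatase genes were taken from the array's probe table by symbol. The rule took names that begin with MAPK, MAP2K, MAP3K, MAP4K or DUSP followed by a digit, with MAPKAPK, or with RPS6K, and left out MAP2K6, DUSP5 and DUSP6. Genes were chosen by symbol alone, and it found 72 of 14884 named genes, each represented by 1 probe set, the one with the highest mean where a gene had several. By level these were 3 MAP4K, 17 MAP3K, 5 MAP2K, 10 MAPK, 4 downstream kinases (MAPKAPK and RPS6K), 8 classical MAP kinase phosphatases, 14 atypical dual-specificity phosphatases, and 11 scaffolds, antisense transcripts and other symbols that the rule also takes. All 72 matched a RefSeq gene.

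The cells were HepG2, a widely used human liver tumour line, and received either nothing or CCL, which the labels do not spell out and whose letters are the initials of the herb in the series title, Cratoxylum cochinchinense Lour. RNA was read on 29 arrays: untreated cells at 0 h (2 arrays), 6, 12, 24 and 48 h (3 arrays each) and 18 h (2 arrays, sets 1 and 3), and CCL-treated cells at 6, 12 and 18 h (3 arrays each) and at 24 and 48 h (2 arrays each, sets 1 and 2). Arrays carry a set number of 1 to 3, and whether a set is a separate culture is unstated, so the spread behind each p-value is that between arrays and may be technical. The labels give no dose and no vehicle, so an effect of the herb and one of its solvent cannot be told apart. HepG2 is 1 line, and a bulk array does not show whether fewer cells carry a transcript or each cell carries less of it.

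A MAP kinase cascade is a relay in which a MAP3K phosphorylates a MAP2K, the MAP2K phosphorylates a MAPK on a threonine and a tyrosine, and the MAPK phosphorylates transcription factors and further kinases. MAP4Ks act above the MAP3Ks. The best known branches end in ERK, JNK and p38, of which ERK follows mainly growth factors and the other two mainly stress. Dual-specificity phosphatases (DUSP) remove both phosphates again, and several of their genes are themselves switched on by the pathway, so that transcript level and pathway activity need not go the same way. Phosphorylation was not measured here.

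The values are log2 expression after robust multi-array averaging (RMA), and 1 unit is a doubling. Of the 72 genes, 42 lay above log2 5 on at least 2 arrays and were tested; 6529 genes were tested in all. A gene is called, and said to rise or fall, where its adjusted p in the limma model was under 0.05. Errors are standard errors of that model. Array medians ran from 2.29 (untreated 18 h, set 1) to 3.39 (CCL 18 h, set 3), so these 2 arrays lay on opposite sides of the 18 h comparison. The median gene was 0.41 higher in CCL-treated cells at 18 h and 0.26 lower at 48 h. Calls that differ after quantile normalization of all arrays are therefore also given. All 11 hepatocyte markers with a probe set lay above log2 5 (means 7.15 to 11.93), and their summed level was 14.09 to 14.33 in CCL-treated and 13.98 to 14.46 in untreated arrays. Endothelial (3 markers), fibroblast (2) and squamous markers (2) had means of 1.94 to 2.93. Of 3 leukocyte markers CD14 (2.94) and CSF1R (2.99) were as dim, while LYZ was at 10.63, and their summed level was 10.27 to 10.96 in CCL-treated and 10.39 to 10.86 in untreated arrays. The part of these markers in the results was not tested.

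Averaged over the 5 times, CCL-treated cells carried more transcript of several MAP kinase phosphatases and of a few kinases spread over the cascade, and less of 3 kinases near its top. DUSP1 (1.20 ± 0.15, 2.3-fold), DUSP8 (1.14 ± 0.13, 2.2-fold) and the p38 delta gene MAPK13 (0.87 ± 0.091, 1.82-fold) rose most. MAP3K13 (-0.59 ± 0.20), MAP4K4 (-0.47 ± 0.14) and MAP3K4 (-0.44 ± 0.12) fell. In all, 14 of 42 genes were called (33.3%), beside 24.6% of the 6529 genes tested. Of the 14, 11 rose (background 13.6%) and 3 fell (background 11%). The median difference was 0.14 over the 42 genes and 0.015 over all genes. After quantile normalization the same 14 genes were called in the same directions, beside backgrounds of 35.4% in either direction, 16.5% higher and 18.9% lower. Of the 11 rising genes, DUSP10, MAP3K9 and MAP3K10 had passed the filter mainly through CCL arrays, where they were higher, so the counts are a description. Without the filter, over all named genes, their adjusted p in limma was 0.00354, 0.00523 and 0.035. MAP3K13 (0.0548) and DUSP16 (0.0571) were then not called.

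**Figure D1:**
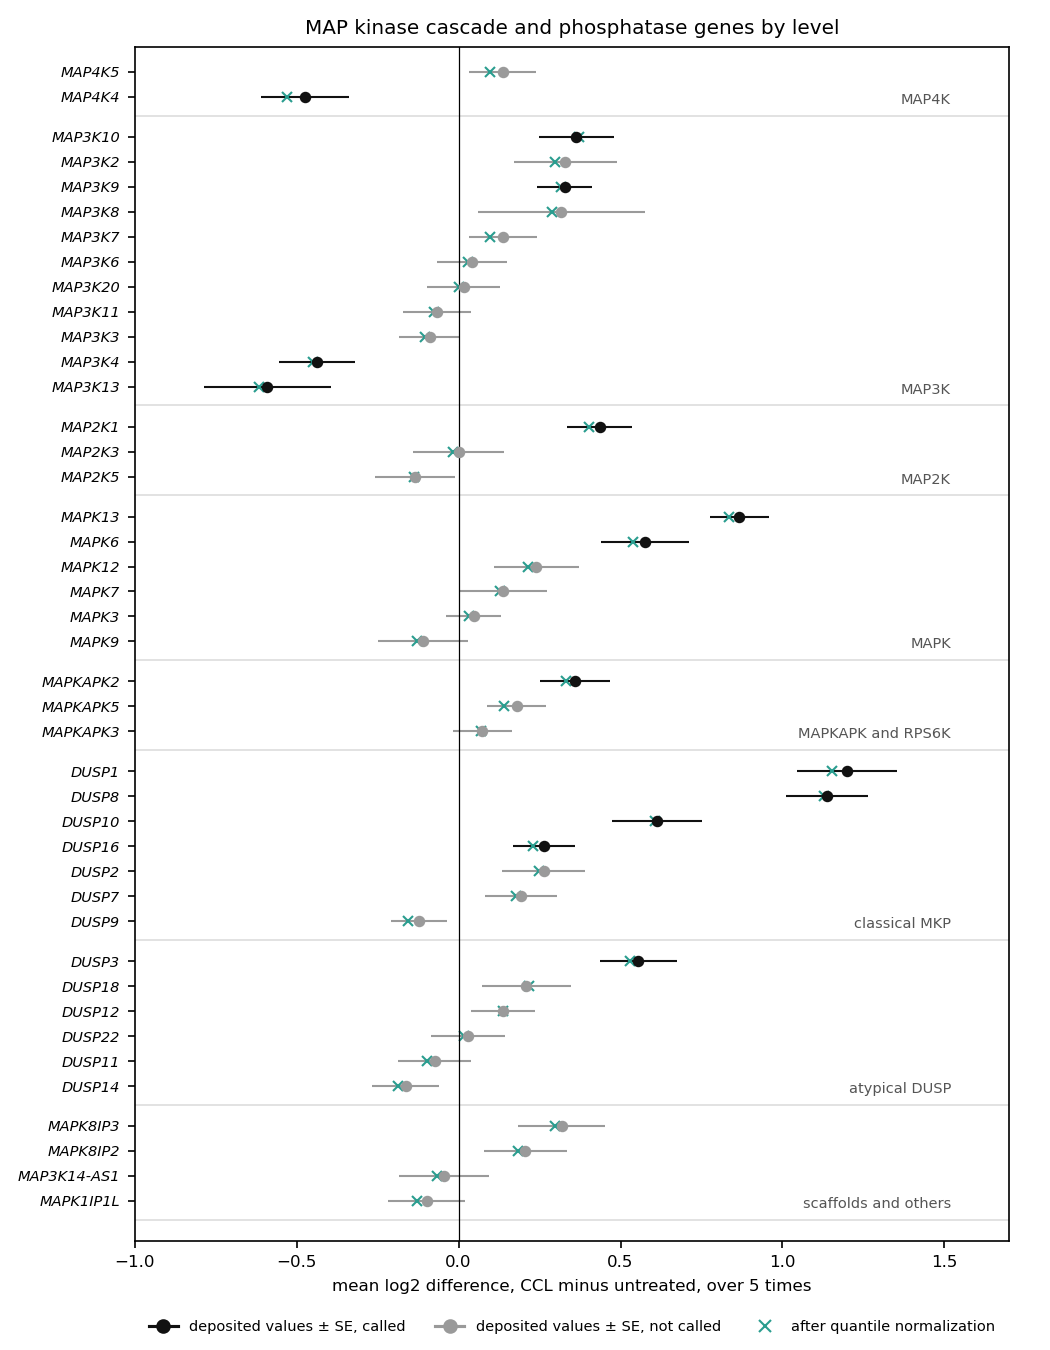
Mean log2 difference of CCL-treated from untreated cells over the 5 times for the 42 tested genes, grouped by cascade level; circles with bars are deposited values ± SE (black, called; grey, not called) and crosses the values after quantile normalization. DUSP1 and DUSP8 lie farthest right at 1.20 and 1.14, MAP3K13 farthest left at -0.59, and the crosses lie close to the circles.

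By level, called phosphatases all rose and called kinases went both ways, beside 13.6% of all genes higher and 11% lower. Of 13 tested phosphatases 10 lay above 0 and 3 below, and all 5 that were called rose, 4 of 7 classical (median 0.26) and 1 of 6 atypical (median 0.083). Of 25 tested kinases 18 lay above 0 and 7 below, and 6 rose and 3 fell (median 0.14). Among them were 2 up and 2 down of 11 MAP3K, 1 up of 3 MAP2K and 2 up of 6 MAPK. The rest were 1 up of 3 downstream kinases and 1 down of 2 MAP4K. A difference between phosphatases and kinases was not tested. None of the 4 scaffolds and other genes was called by limma, and 1 had an unadjusted p under 0.05, against 2 after quantile normalization. Called genes of every level but the scaffolds are thus among the 14.

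Promoter sequence is shown for the 3 largest rises and 2 largest falls among the called genes whose RefSeq start lies at the outer end of the annotated gene. These are the 250 bases before the start in GRCh38.p14, read on the gene's strand. Capitals mark matches on either strand to the cyclic AMP response element (CRE) TGACGTCA, its shorter core TGACG, and the EGR motif GCGNGGGCG.
DUSP1 (chr5:172771196-172771445, minus strand): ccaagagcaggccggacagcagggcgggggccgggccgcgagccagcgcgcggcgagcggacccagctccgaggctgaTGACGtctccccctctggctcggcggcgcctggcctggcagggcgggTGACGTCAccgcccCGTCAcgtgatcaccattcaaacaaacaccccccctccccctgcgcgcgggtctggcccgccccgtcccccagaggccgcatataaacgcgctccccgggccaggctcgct
MAPK13 (chr6:36130263-36130512, plus strand): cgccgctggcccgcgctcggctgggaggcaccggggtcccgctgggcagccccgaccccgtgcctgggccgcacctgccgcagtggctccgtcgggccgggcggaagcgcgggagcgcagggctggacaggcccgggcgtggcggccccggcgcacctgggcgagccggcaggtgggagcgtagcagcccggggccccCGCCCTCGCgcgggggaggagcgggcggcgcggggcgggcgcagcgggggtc
DUSP10 (chr1:221742090-221742339, minus strand): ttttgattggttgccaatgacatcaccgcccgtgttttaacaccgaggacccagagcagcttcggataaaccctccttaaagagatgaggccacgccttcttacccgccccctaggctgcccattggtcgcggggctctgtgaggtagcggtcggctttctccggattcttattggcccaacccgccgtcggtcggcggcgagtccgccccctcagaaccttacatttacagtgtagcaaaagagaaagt
MAP4K4 (chr2:101697457-101697706, plus strand): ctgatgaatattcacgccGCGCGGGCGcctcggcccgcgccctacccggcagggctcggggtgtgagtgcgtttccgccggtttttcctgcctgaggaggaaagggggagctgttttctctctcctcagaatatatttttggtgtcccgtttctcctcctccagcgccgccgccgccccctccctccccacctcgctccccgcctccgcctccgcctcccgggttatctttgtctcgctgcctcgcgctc
MAP3K13 (chr3:185282711-185282960, plus strand): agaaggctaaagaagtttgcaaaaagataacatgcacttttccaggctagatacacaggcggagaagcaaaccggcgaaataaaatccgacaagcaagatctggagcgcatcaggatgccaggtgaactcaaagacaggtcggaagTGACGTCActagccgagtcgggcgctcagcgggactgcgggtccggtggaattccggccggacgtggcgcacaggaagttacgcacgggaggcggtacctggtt

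The full CRE occurred in 3 of the 13 called genes with a RefSeq window, against 1.65% of 35116 windows of the same length. DUSP1 holds it with its first base 125 bases before the start, the falling gene MAP3K13 at 104 bases, and DUSP8, not shown, at 118 and at 74 bases. The core TGACG, which overlaps the full element, occurred in 8 of 13 windows (21.2% of all). The EGR motif occurred in 5 of 13 (8.41% of all), MAPK13 and MAP4K4 among them. The DUSP10 window has none of the 3. The AP-1 motif TGANTCA (6.57% of all windows), the ETS motif CCGGAAGT (3.42%) and the CArG box of SRF (1.16%) occurred in none of the 13. A match is a string of letters and no evidence of binding, and MAPKAPK2 had no window. The starts of DUSP8 and MAPK6 do not lie at the outer end of the gene. DUSP10, MAP2K1, MAP3K9 and MAP4K4 have 2 listed starts, of which 1 was read. The 35116 windows are not limited to the genes tested, so the shares are a rough background.

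DUSP1, a nuclear phosphatase and immediate early gene that acts on p38, JNK and ERK, rose, and was called already at 6 h. At 6 h its untreated arrays read 6.94, 6.96 and 7.06 and its CCL arrays 8.06, 8.27 and 9.29 (sets 1 to 3). At 12 h they read 6.48, 6.33 and 7.05 against 7.63, 7.86 and 7.997, and at 18 h 6.29 and 7.46 (sets 1 and 3) against 7.90, 7.87 and 8.54. At 24 h the values were 6.67, 6.59 and 7.26 against 7.82 and 7.96, and at 48 h 7.24, 7.10 and 7.30 against 8.77 and 7.57. At every time all CCL arrays lay above all untreated arrays. The difference was 1.55 ± 0.32 at 6 h (2.93-fold, adjusted p 0.0222), the single call among the 42 genes at that time (2.38%, background 0.306%). It was 1.21, 1.23, 1.05 and 0.95 at the later times, of which the 18 h value was called. After quantile normalization the 6, 12 and 48 h values were called (1.60, 1.19 and 1.11) and the 18 h value was not (adjusted p 0.157). The call at 6 h was lost in 4 of 6 fits that left out 1 array (adjusted p up to 0.198, without CCL set 3, with a difference of 1.18). Over the 5 times no left-out array ended the call (adjusted p 3.12e-07 to 1.05e-05).

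DUSP8, a phosphatase with a preference for JNK and p38, was higher on every CCL array than on any untreated array. Its untreated arrays at the 5 times read 4.31 to 6.11 and its CCL arrays 6.18 to 6.95. Untreated values were 5.90, 6.11 and 5.32 at 6 h, 5.48, 5.56 and 4.97 at 12 h, 4.31 and 5.56 at 18 h, 4.54, 5.30 and 5.26 at 24 h and 5.55, 5.58 and 5.43 at 48 h. The CCL values were 6.50, 6.95 and 6.84 at 6 h, 6.43, 6.34 and 6.18 at 12 h, 6.28, 6.28 and 6.59 at 18 h, 6.39 and 6.21 at 24 h and 6.61 and 6.42 at 48 h. The 2 arms did not overlap at any time. Differences were 0.99, 0.98, 1.45, 1.27 and 1.00, called at 18, 24 and 48 h, and after quantile normalization at all 5 times (0.97 to 1.33, adjusted p 0.00139 to 0.0138). As deposited, the 24 h call was lost in 2 of 5 fits that left out 1 array (adjusted p up to 0.266, without CCL set 1) and the 48 h call in 4 of 5. Over the 5 times the adjusted p was 2.35e-07, and no left-out array ended that call.

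DUSP10 and DUSP16, both known for acting on JNK and p38, rose less. DUSP10 was dim: it passed the filter through 7 CCL arrays and 1 untreated array above log2 5, mainly through the group where it was high, so its test is no independent support. Its untreated arrays spanned 3.55 to 5.02 and its CCL arrays 4.59 to 5.92, with the lowest untreated value on the 18 h array of set 1. The mean difference was 0.61 ± 0.14 (adjusted p 0.00192). DUSP16 gave 0.26 ± 0.096 (adjusted p 0.0452), with untreated arrays at 6.79 to 7.71 and CCL arrays at 7.11 to 8.07. Its arms were apart at 6 and 18 h and overlapped at the other times. Its call was lost in 16 of 27 fits that left out 1 array (adjusted p up to 0.0876, without CCL 24 h set 2), more often than that of any other of the 14.

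The other classical phosphatases were not called. DUSP2, a nuclear phosphatase of immune cells, stood at 0.26 ± 0.13 (95% interval -0.002 to 0.53). It exceeded log2 5 on 2 CCL arrays and no untreated array. DUSP7, an ERK phosphatase of the cytoplasm, stood at 0.19 ± 0.11 and its relative DUSP9 at -0.12 ± 0.087 (interval -0.30 to 0.058). DUSP4, a nuclear phosphatase induced by ERK in many cells, had a mean of 2.89 and no array above 5, and was not tested. The ERK phosphatases DUSP5 and DUSP6, which the rule leaves out, rose by 2.71 ± 0.20 and 0.75 ± 0.10.

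Among the atypical phosphatases DUSP3 (VHR), a small enzyme that acts on ERK and JNK, rose by 0.55 ± 0.12 (adjusted p 0.0012). Its untreated arrays read 7.27, 6.60 and 6.77 at 6 h, 6.70, 6.58 and 6.36 at 12 h, 5.61 and 6.66 at 18 h, 5.88, 6.85 and 6.54 at 24 h and 6.92, 6.84 and 6.72 at 48 h. Its CCL arrays read 7.37, 7.15 and 6.92 at 6 h, 6.87, 6.81 and 6.98 at 12 h, 7.08, 7.04 and 7.48 at 18 h, 7.40 and 7.14 at 24 h and 7.14 and 7.02 at 48 h. The arms overlapped at 6 h and were apart at the other times, widest at 18 and 24 h, where set 1 of the untreated cells was low. The call was at 18 h as deposited (1.06 ± 0.28), and at 24 h after quantile normalization (0.81 ± 0.23). DUSP11, DUSP12, DUSP14, DUSP18 and DUSP22 lay between -0.16 (DUSP14) and 0.21 (DUSP18) and were not called. The other 8 atypical genes stayed below the filter. Among them DUSP19, above log2 5 on 1 array and not tested, had a lower group mean with CCL at each of the 5 times. At 12 h its means were 3.80 untreated and 2.29 with CCL. Set 3 was its highest untreated array at every time, and CCL arrays of set 3 are missing at 24 and 48 h.

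**Figure D2:**
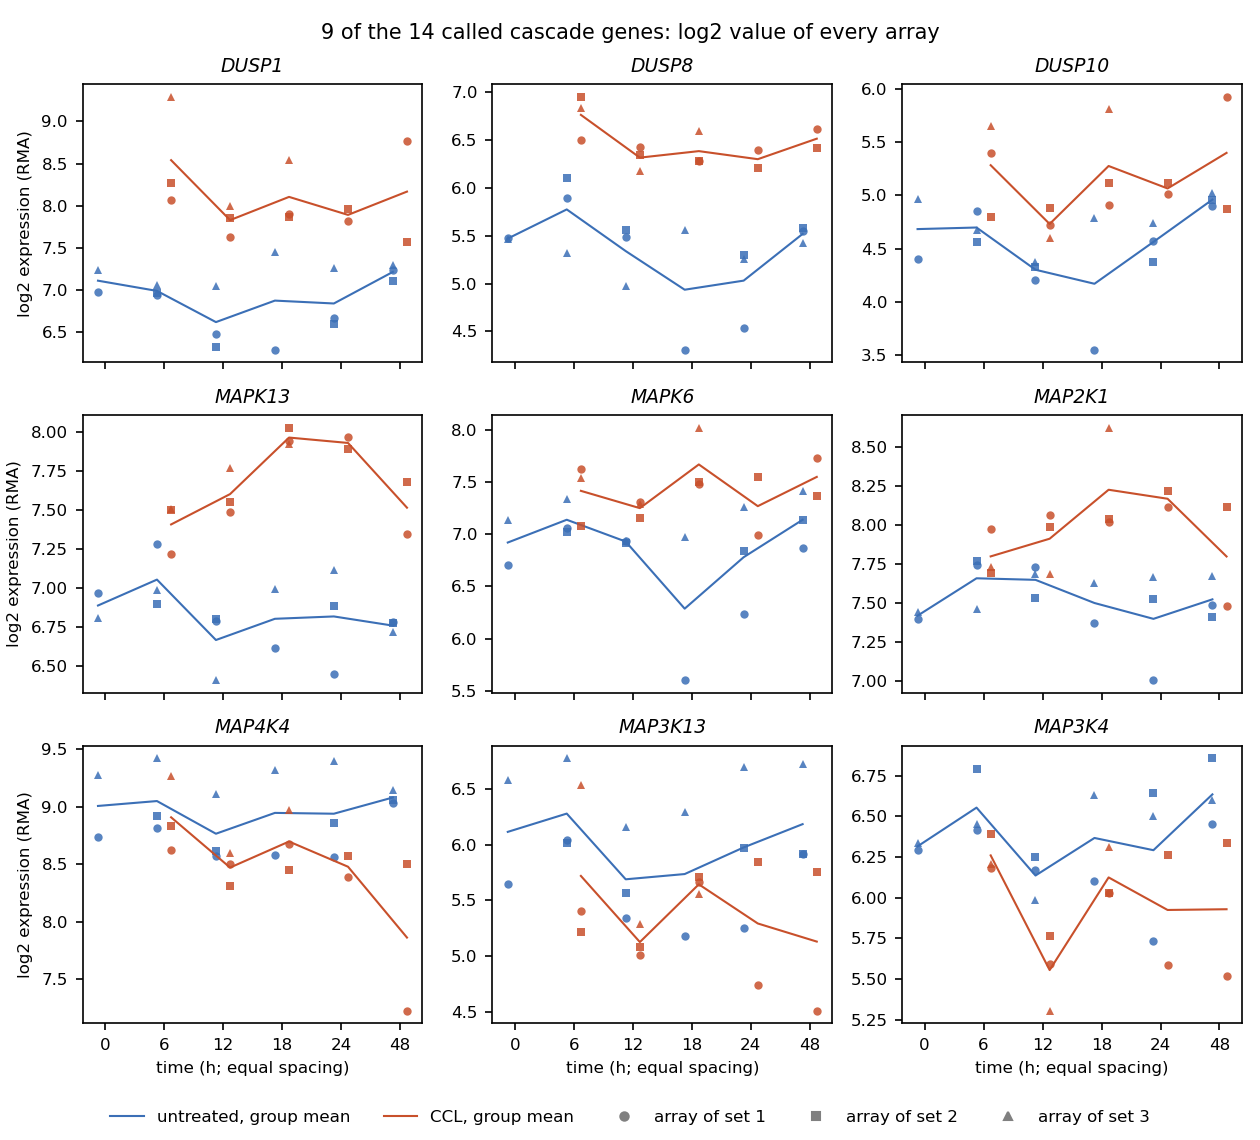
Log2 expression on every array against time (equally spaced) for 9 of the 14 called genes; circles, squares and triangles are sets 1, 2 and 3, and lines join group means of untreated (blue) and CCL-treated cells (red). DUSP1 and DUSP8 are apart at all 5 times, MAPK13 from 12 h on, and the lowest untreated MAPK6 value (5.60) is the 18 h array of set 1.

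At the MAPK level MAPK13 and MAPK6 rose and the ERK1 gene was not called. MAPK13, the delta form of p38, read 7.28, 6.89 and 6.98 untreated and 7.22, 7.50 and 7.51 with CCL at 6 h, which overlap. At 12 h it read 6.79, 6.80 and 6.41 against 7.49, 7.55 and 7.77, and at 18 h 6.61 and 6.99 against 7.95, 8.03 and 7.92. At 24 h it read 6.45, 6.88 and 7.12 against 7.97 and 7.89, and at 48 h 6.78, 6.77 and 6.72 against 7.35 and 7.68. From 12 h on no CCL array reached down to an untreated one. Differences were 0.35 ± 0.19 at 6 h, not called (adjusted p 0.702), then 0.94 ± 0.19, 1.17 ± 0.21, 1.12 ± 0.21 and 0.76 ± 0.21, all called. The difference between the effects at 12 h and 6 h did not pass (adjusted p 1), so a later onset is not shown. The call at 48 h was lost whichever of the 5 arrays was left out, that at 12 h in 2 of 6 fits (without set 3 of either arm) and that at 24 h in 1 of 5.

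MAPK6 encodes ERK3, an atypical MAPK that lacks the usual tyrosine of the activation loop and turns over quickly. Its untreated arrays read 7.06, 7.03 and 7.33 at 6 h, 6.94, 6.92 and 6.94 at 12 h, 5.60 and 6.97 at 18 h, 6.24, 6.84 and 7.27 at 24 h and 6.87, 7.14 and 7.41 at 48 h. The CCL arrays read 7.63, 7.08 and 7.54 at 6 h, 7.31, 7.15 and 7.29 at 12 h, 7.49, 7.50 and 8.02 at 18 h, 6.99 and 7.55 at 24 h and 7.74 and 7.37 at 48 h. The arms were apart at 12 and 18 h and overlapped at the others. The mean was 0.58 ± 0.14 (adjusted p 0.00277), but 0.37 ± 0.15 over the 4 times without 18 h, where it was not called (adjusted p 0.0737).

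MAPK3, the ERK1 gene, gave 0.046 ± 0.085 (interval -0.13 to 0.22), and the JNK2 gene MAPK9 -0.11 ± 0.14 (interval -0.39 to 0.17). Both intervals span 0. MAPK3 at 48 h was 0.45 ± 0.20 as deposited and 0.70 ± 0.21 after quantile normalization, where it was called (adjusted p 0.0323). Its arrays there read 6.48, 6.45 and 6.14 untreated and 6.81 and 6.80 with CCL, apart but with only 2 CCL arrays. The p38 gamma gene MAPK12 (0.24 ± 0.13) and the ERK5 gene MAPK7 (0.14 ± 0.14) were not called over the 5 times. MAPK4, MAPK10, MAPK11 and MAPK15 stayed below the filter, and MAPK8 and MAPK14, the genes of JNK1 and p38 alpha, were not analysed here because no probe set carried their names.

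MAP2K1, which encodes MEK1, the kinase directly above ERK, was the 1 of 3 tested MAP2K genes to rise. Untreated arrays read 7.74, 7.77 and 7.46 at 6 h, 7.73, 7.53 and 7.68 at 12 h, 7.37 and 7.63 at 18 h, 7.002, 7.52 and 7.67 at 24 h and 7.48, 7.41 and 7.67 at 48 h. CCL arrays read 7.97, 7.69 and 7.73 at 6 h, 8.06, 7.99 and 7.69 at 12 h, 8.02, 8.04 and 8.62 at 18 h, 8.12 and 8.22 at 24 h and 7.48 and 8.12 at 48 h. They were apart at 18 and 24 h only, with differences of 0.73 ± 0.23 and 0.77 ± 0.23, of which the first was called. After quantile normalization the calls were at 24 h (0.70 ± 0.16) and 48 h (0.48 ± 0.16). The mean was 0.44 ± 0.10 (adjusted p 0.0023, 1.35-fold) and remained called without 18 h (0.36 ± 0.11). MAP2K3, which activates p38, stood at 0.00068 ± 0.14 (interval -0.29 to 0.29), and MAP2K5, which activates ERK5, at -0.13 ± 0.12. Without the 2 arrays of 18 h with extreme medians MAP2K5 was -0.29 and was called (adjusted p 0.0417). MAP2K2 (mean 3.44) and MAP2K4 (4.38) were below the filter, and MAP2K7 was not analysed here. MAP2K6, the other activator of p38 and outside the rule, fell by 2.15 ± 0.22.

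The MAP3K level moved both ways. MAP3K9 and MAP3K10, the mixed-lineage kinases MLK1 and MLK2 of the JNK branch, rose by 0.33 ± 0.085 and 0.36 ± 0.12 (adjusted p 0.00593 and 0.0232). MAP3K9 read 3.91 to 4.84 untreated and 4.11 to 5.13 with CCL, and MAP3K10 4.12 to 5.03 and 4.46 to 5.50. Both are dim, and these ranges, taken over all times, overlap. Time by time, MAP3K9 was apart at 6, 18 and 24 h, by little at 6 and 24 h, and MAP3K10 at 24 and 48 h. MAP3K9 exceeded log2 5 on 2 CCL arrays alone, and MAP3K10 on 7 CCL arrays and 1 untreated one, so both passed the filter mainly where they were high and their tests are no independent support. After quantile normalization MAP3K10 was also called at 48 h (0.72 ± 0.21). Neither was called over the 4 times without 18 h (0.19 ± 0.094 and 0.28 ± 0.13). MAP3K10 was also lost without untreated 18 h set 1 (adjusted p 0.0687).

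MAP3K13 (LZK), a leucine zipper-bearing kinase of the JNK branch, and MAP3K4 (MTK1), a stress-responsive kinase above p38 and JNK, fell. MAP3K4 read 6.41, 6.79 and 6.46 untreated against 6.18, 6.39 and 6.21 with CCL at 6 h, 6.17, 6.25 and 5.99 against 5.59, 5.77 and 5.30 at 12 h, and 6.10 and 6.63 against 6.03, 6.03 and 6.32 at 18 h. It read 5.73, 6.64 and 6.50 against 5.59 and 6.26 at 24 h, and 6.45, 6.86 and 6.60 against 5.52 and 6.34 at 48 h. The CCL arrays lay below all untreated arrays at 6, 12 and 48 h. No left-out array ended its call over the 5 times (adjusted p 0.00118 to 0.0327).

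MAP3K13 read 6.04, 6.02 and 6.77 untreated against 5.40, 5.22 and 6.54 with CCL at 6 h, 5.34, 5.57 and 6.16 against 5.01, 5.08 and 5.29 at 12 h, and 5.18 and 6.29 against 5.66, 5.71 and 5.56 at 18 h. It read 5.25, 5.97 and 6.70 against 4.74 and 5.85 at 24 h, and 5.92, 5.91 and 6.72 against 4.51 and 5.75 at 48 h. Set 3 was the highest untreated array at every time, and CCL arrays of set 3 are missing at 24 and 48 h. The fall of 0.59 ± 0.20 (adjusted p 0.029) was lost in 7 of 27 fits that left out 1 array, up to 0.101 without CCL 24 h set 1. With arrays of 1 set and time side by side, MAP3K13 was lower in 11 of 12 pairs (median -0.50). The means of these pairs were -0.49, -0.39 and -0.61 in sets 1, 2 and 3. The labels do not say that such arrays belong together, so these values are a description.

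Of the other 7 MAP3K genes tested none was called over the 5 times. MAP3K7 (TAK1), which links cytokine receptors to JNK, p38 and NF-kB, stood at 0.14 ± 0.10 (interval -0.079 to 0.35). MAP3K2, which acts above ERK5 and JNK, stood at 0.33 ± 0.16 (adjusted p 0.137). With the set added to the limma model as a replicate block, MAP3K2 was at 0.42 and was called (adjusted p 0.0026). MAP3K8 (TPL2) ran from -0.83 ± 0.60 at 48 h to 1.45 ± 0.60 at 18 h. MAP3K5 (ASK1), a sensor of oxidative stress, had a mean of 2.46 and was not tested.

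MAP4K4, a kinase above the JNK branch that also acts on cell movement, fell. Untreated against CCL arrays, the values were 8.81, 8.92 and 9.42 against 8.62, 8.83 and 9.27 at 6 h, 8.57, 8.61 and 9.11 against 8.50, 8.31 and 8.59 at 12 h, and 8.58 and 9.32 against 8.68, 8.45 and 8.97 at 18 h. They were 8.56, 8.86 and 9.40 against 8.39 and 8.57 at 24 h, and 9.03, 9.06 and 9.15 against 7.22 and 8.50 at 48 h. The arms overlapped at 4 times and were apart at 48 h, where CCL set 1 lay far below set 2. As for MAP3K13, set 3 was the highest untreated array at every time, and its CCL arrays are missing at 24 and 48 h. With arrays of 1 set and time side by side, MAP4K4 was lower in 11 of 12 pairs (median -0.24), again a description. The means of these pairs were -0.43, -0.31 and -0.34 in sets 1, 2 and 3. The 48 h fall of 1.22 ± 0.32 (adjusted p 0.0256) was -0.58 without CCL set 1 and -1.86 without CCL set 2. The mean over the 5 times lost its call without CCL 48 h set 1 (adjusted p 0.0544). MAP4K5 stood at 0.14 ± 0.10, and MAP4K1 was below the filter.

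Of the kinases below the MAPKs, MAPKAPK2 (MK2), through which p38 stabilises cytokine messages, rose. Untreated arrays read 6.65, 6.55 and 6.64 at 6 h, 6.55, 6.52 and 6.01 at 12 h, 5.91 and 6.56 at 18 h, 6.09, 6.56 and 6.67 at 24 h and 6.63, 6.65 and 6.66 at 48 h. CCL arrays read 6.91, 6.66 and 6.67 at 6 h, 6.78, 6.74 and 6.86 at 12 h, 6.80, 6.99 and 7.59 at 18 h, 6.68 and 6.81 at 24 h and 6.38 and 6.97 at 48 h. The arms were apart at each time up to 24 h, by little at 6 and 24 h. The mean was 0.36 ± 0.11 (adjusted p 0.0171), and 0.23 ± 0.12 without 18 h, which was not called. MAPKAPK3 stood at 0.073 ± 0.091 and MAPKAPK5 at 0.18 ± 0.091. RPS6KL1 was below the filter, and RPS6KA1, RPS6KA3 and RPS6KB1 were not analysed here. Among scaffolds, the JNK-binding proteins MAPK8IP3 (0.32 ± 0.13, adjusted p 0.0866) and MAPK8IP2 (0.21 ± 0.13) were not called, nor were MAPK1IP1L (-0.099 ± 0.12) and the antisense transcript MAP3K14-AS1 (-0.046 ± 0.14).

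By time, most calls at single times fell at 18 h. After 1 call at 6 h, 1 gene was called at 12 h (MAPK13; 2.38%, background 1.24%) and 14 at 18 h, all higher (33.3%, background 12.5% in either direction and 12.3% higher). There were 2 at 24 h (DUSP8 and MAPK13; 4.76%, background 3.02%) and 3 at 48 h (DUSP8 and MAPK13 higher, MAP4K4 lower; 7.14%, background 6.56%, of which 1.33% higher and 5.22% lower), against 6 higher and 1 lower at 48 h after quantile normalization. Quantile normalization gave 2, 3, 4, 4 and 7 calls at the 5 times, beside backgrounds of 1.3%, 2.24%, 5.18%, 6.89% and 12.4%. With 1 array left out, the count was 0 to 1 at 6 h and at 12 h, 0 to 3 at 24 h, and at 48 h 10 without CCL set 2 and 0 without any of the others. In all, 15 genes were called at 1 or more times, 11 of them at 18 h alone. MAP3K2 (1.32), MAPK7 (1.03), MAPK12 (0.91) and MAPK8IP2 (1.04) were called at 18 h and not over the 5 times.

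The 18 h calls depended on single arrays. Without untreated 18 h set 1, none of the 14 remained called (24 of all genes were, 0.368%), although all 14 differences stayed above 0, from 0.26 for MAPK8IP2 to 0.98 for MAPK13. The count was 26 without the other untreated array, 3 without CCL set 3, and 0 without both arrays with extreme medians. After quantile normalization 4 were called at 18 h, DUSP8 (1.01), MAPK6 (0.98) and MAPK13 (0.79) higher and MAP3K4 (-0.67) lower, and 11 of the 14 genes called as deposited were not. Of all genes called at 18 h, 803 were higher and 12 lower as deposited, and 224 higher and 114 lower after quantile normalization. As deposited, MAP3K4 at 18 h was -0.24 ± 0.27. Over the 4 times without 18 h, 9 genes were called: DUSP1, DUSP8, DUSP10, DUSP3, MAPK13 and MAP2K1 higher, and MAP3K4, MAP3K13 and MAP4K4 lower.

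**Figure D3:**
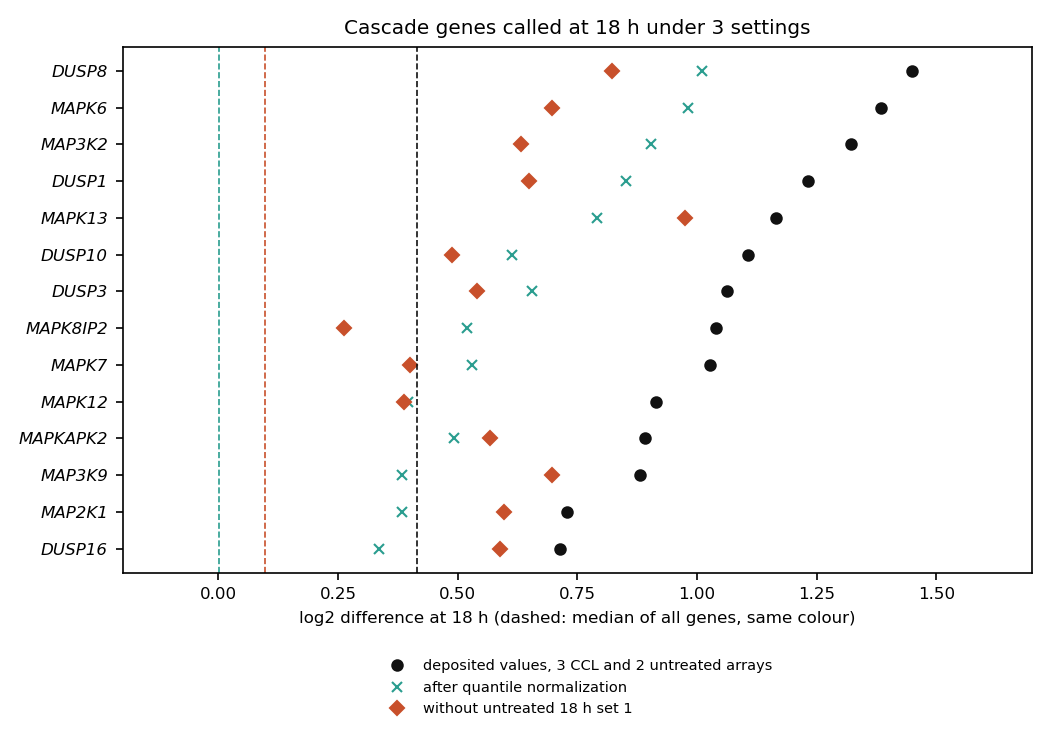
Log2 difference at 18 h of the 14 genes called there, as deposited (black circles), after quantile normalization (green crosses) and without untreated 18 h set 1 (red diamonds); dashed lines are the median of all tested genes in the same colour. As deposited the values run from 0.71 (DUSP16) to 1.45 (DUSP8), to the right of the all-gene median of 0.41, and both other settings lie lower for each gene.

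**Figure D4:**
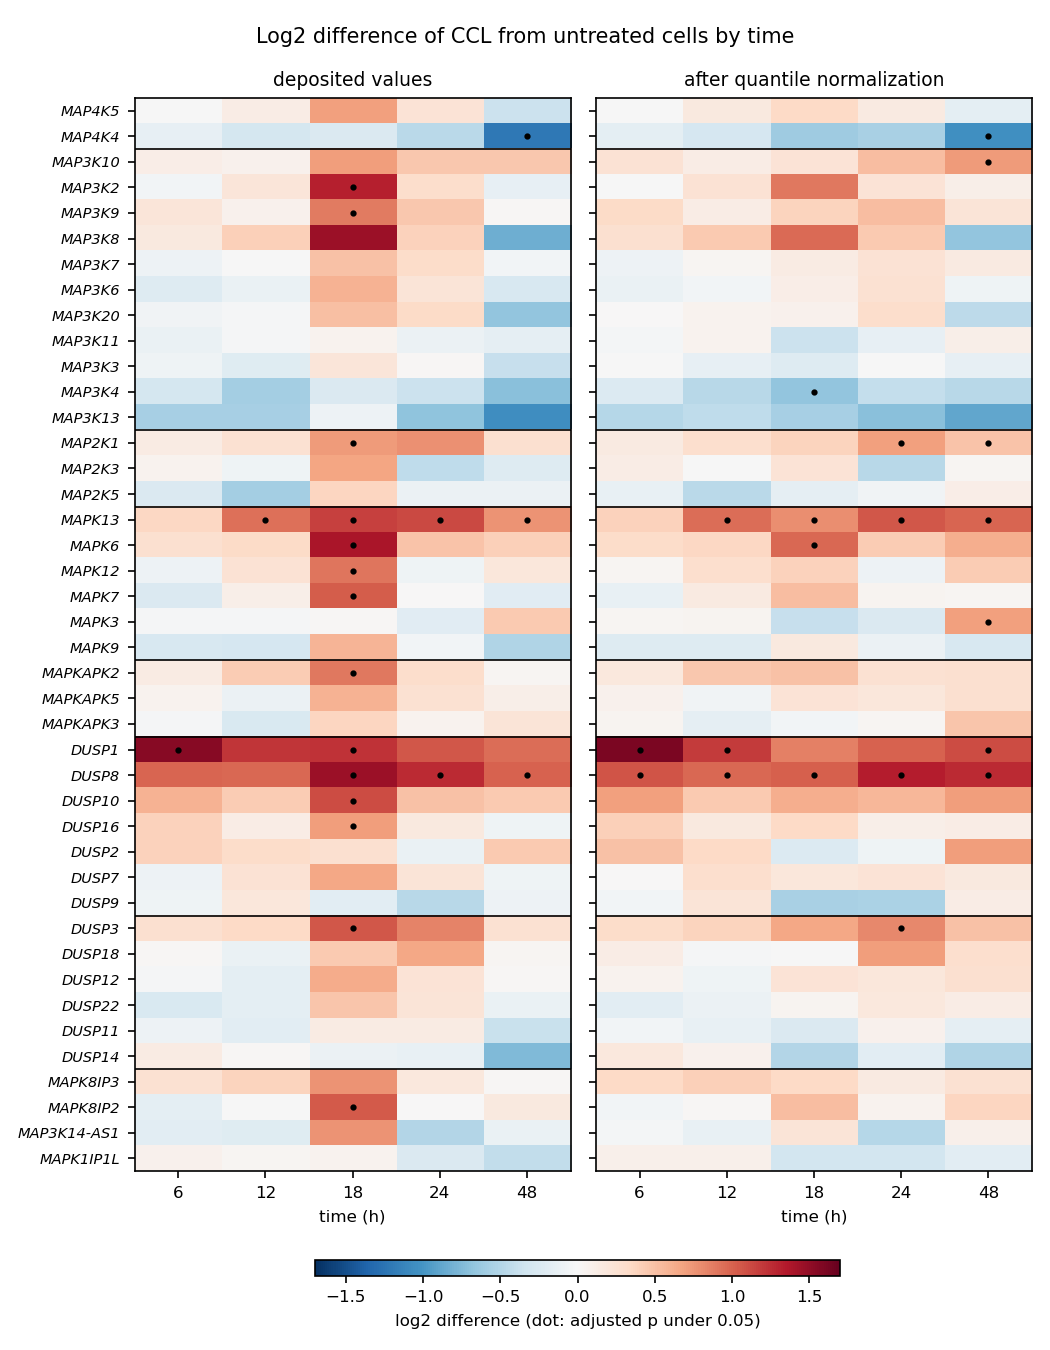
Log2 difference of CCL-treated from untreated cells at each of the 5 times for the 42 tested genes, ordered by level, as deposited (left) and after quantile normalization (right); red is higher with CCL, blue lower, and a dot marks an adjusted p under 0.05. The 18 h column as deposited is mostly red with 14 dots; after quantile normalization it has 4, and DUSP8 has a dot at all 5 times.

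Whether the effect itself differed between times was tested directly. At an unadjusted p under 0.05, limma's F-test gave 2 of 42 genes (MAP3K9 and MAP3K20), against 697 of all 6529 genes. After quantile normalization it gave 3, against 444 of all genes. With adjustment 0 of 42 passed in either case (background 0.0153%). Without untreated 18 h set 3 it was 7 genes and 884 of all genes. By direction, 10 of the 11 rising genes lay above 0 at all 5 times (DUSP16 at 4), and the 3 falling genes below 0 at all 5. The times use separate arrays, but these genes were called on the mean of the same 5 differences. Their like signs are thus no independent support. In untreated cells alone, 48 h against 6 h gave 0 of 42 genes by limma (background 0.0153%), and also 0 after quantile normalization. At an unadjusted p under 0.05 there was 1, DUSP9 (0.38 ± 0.18), against 76 of all 6529 genes. After quantile normalization there was also 1, against 178 of all genes. Untreated group means of DUSP1 spanned 0.60 and those of MAPK13 0.39, less than their mean differences between the arms. As deposited, the untreated span was the larger in 7 of the 14 called genes, as in MAPK6 (0.85) and DUSP10 (0.79). After quantile normalization the untreated span was 0.53 in MAPK6 and 0.37 in DUSP10.

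**Figure D5:**
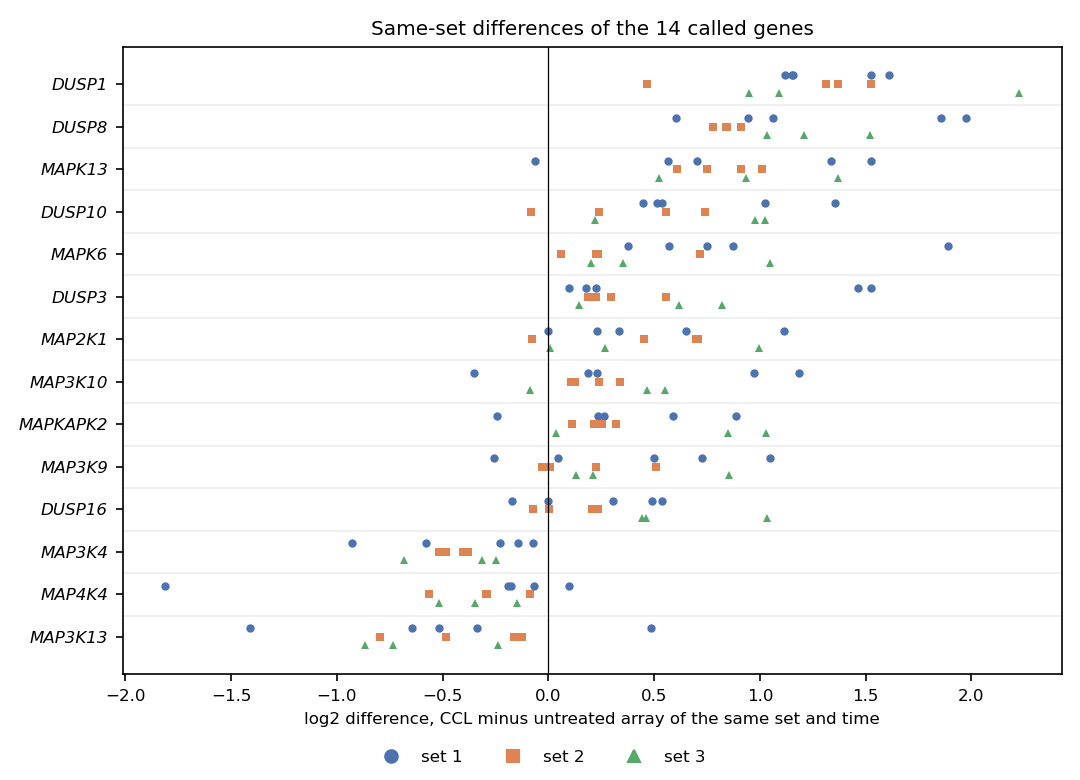
Log2 difference of a CCL-treated array from the untreated array of the same set and time for the 14 called genes, 12 differences a gene; circles, squares and triangles are sets 1, 2 and 3. DUSP1, DUSP8, MAPK6 and DUSP3 lie above 0 in 12 of 12 and MAP3K4 below 0 in 12 of 12.

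Set against the untreated array of its own set and time, DUSP1 was higher in 12 of 12 CCL arrays (0.47 to 2.23, median 1.23), and DUSP8 likewise (0.60 to 1.97, median 0.99). MAPK6 and DUSP3 were also higher in 12 of 12, MAPK13, DUSP10 and MAPKAPK2 in 11, MAP2K1, MAP3K9 and MAP3K10 in 10, and DUSP16 in 9. MAP3K4 was lower in 12 of 12 and MAP4K4 and MAP3K13 in 11. The labels do not say that arrays of 1 set belong together, so these counts describe the arrays and carry no test.

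The rest of the pathway was described by lists of genes that do not follow the symbol rule. Their calls stand beside 13.6% of all genes higher and 11% lower. The lists were drawn up with earlier results of these data known, so counts and medians are a description and no independent support. Among targets of MAP kinases, 12 of 20 tested genes rose and 1 fell (median 0.41, against 0.015 for all genes). The risers include the AP-1 subunit FOSL1 (1.67 ± 0.18), the survival gene IER3 (1.57 ± 0.14), JUNB (1.07 ± 0.16) and EGR1 (0.93 ± 0.20), while the ETS factor ETV5, often taken as an ERK target, fell (-0.39 ± 0.12) and FOS was not called (0.25 ± 0.12, adjusted p 0.126). Among restraints on RAS and RAF, 3 of 7 rose, SPRY4 (1.39 ± 0.16), the EGFR inhibitor ERRFI1 (0.84 ± 0.15) and the RAS GTPase activator RASAL2 (0.79 ± 0.13), and none fell (median 0.45). Of 28 genes upstream of the cascade 7 rose and 1 fell (median 0.032), with the RAS exchange factor SOS1 at 1.05 ± 0.19, EGFR at 0.87 ± 0.17 and MET at 0.56 ± 0.087, and the adaptor GAB1 lower at -0.51 ± 0.16. After quantile normalization 13 targets rose and 2 fell, 4 restraints rose and 0 fell, and 8 upstream genes rose and 2 fell. The backgrounds were then 16.5% higher and 18.9% lower. None of the 3 GADD45 genes, whose proteins activate MAP3K4, had a named probe set.

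Of the 72 genes, 30 lay below the filter and carry no test: 8 atypical phosphatases, 7 scaffolds and others, 6 MAP3K, 4 MAPK, 2 MAP2K, and 1 each of MAP4K, downstream kinases and classical phosphatases. Their means ran from 1.98 (MAP3K20-AS1) to 4.62 (the pseudogene MAPK8IP1P2), and 5 of them exceeded log2 5 on 1 array. Among the 42, 5 had passed with fewer than 2 untreated arrays above 5 (DUSP10, DUSP2, MAP3K9, MAP3K10 and MAPK8IP2), and MAP3K14-AS1 had passed with no CCL array above 5. MAPK1IP1L has a second, dimmer probe set that moved the other way. Precision is limited throughout by how few arrays each group has.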

How the data were processed

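RNA from HepG2 cells was hybridised, as biotin-labelled cRNA, to 29 Affymetrix gene arrays. The authors deposited log2 expression values for 53617 probe sets, made with RMA in Affymetrix Expression Console 1.1, per the submitters' processing notes; which arrays were normalized together is not given in the sources used here. GEO's platform annotation names 1 gene for 16098 probe sets and none for 37519. No 2 arrays held identical values.

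All 29 arrays were fitted with limma 3.58.1 in R 4.3.3, with 1 mean per group, on 6529 genes, those with 2 or more arrays above log2 5. P-values are two-sided with Benjamini-Hochberg adjustment over these genes, and the threshold was 0.05. The script was tested on simulated data. Contrasts were CCL minus untreated at each time, their mean, limma's F-test between the times, and untreated 48 h minus 6 h.

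The text names every gene called in any of these contrasts of CCL with untreated cells and the highest and lowest of each level. The members and lists were chosen with earlier results of these data known. Alternatives were quantile normalization over all probe sets, the set as replicate block, no filter or one at log2 6, the mean of a gene's probe sets, a trended robust prior, the compared arrays only, and each array left out. Promoters are RefSeq's, in GRCh38.p14.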

Additional observations from a re-analysis of the deposited data

How the results depend on the processing

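Over the 5 times the count of 14 called genes was 12 to 18 with 1 array left out, 16 with the set as replicate block (MAP3K2 then at 0.42, adjusted p 0.0026), 13 without the filter on dim genes and 11 with the filter at log2 6, and 9 over the 4 times without 18 h, an average chosen after seeing the data. Without the filter MAP3K13 and DUSP16 were not called, so the 13 include a gene outside the 14. Counts at single times moved more. Quantile normalization gave 2, 3, 4, 4 and 7 called genes at 6, 12, 18, 24 and 48 h, against 1, 1, 14, 2 and 3 as deposited. The replicate block gave 2, 3, 18, 5 and 6, and the cause was not tested. Shares over all genes are not set beside the block counts, so these counts show nothing particular to the cascade genes. Set numbers were not taken to pair arrays: residuals of same-set arrays correlated above 0.1 in 9 of 12 comparisons (-0.066 to 0.44), with the own set best in 7. With the compared arrays only, which leaves fewer samples for the spread, 4 genes were called at 12 h and 0 at 18, 24 and 48 h. The filter at log2 6 gave 3 at 12 h and 9 at 18 h, and the trended prior 2 at 12 h. With 1 array left out the counts ran from 0 to 1 at 6 h, 0 to 1 at 12 h, 0 to 26 at 18 h, 0 to 3 at 24 h and 0 to 10 at 48 h, and from 0 to 7 for the test between times. Without the 2 arrays of 18 h with extreme medians, a choice made after seeing the data, 0 genes were called at 18 h and 12 over the 5 times (8 higher, 4 lower).

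None of the genes whose mean difference changed sign was called over the 5 times: MAP2K3 (-0.018 with quantile normalization, -0.013 with the replicate block, -0.098 without the 2 arrays, -0.17 without 18 h, and -0.099 to 0.10 with 1 array left out), MAPK7 (-0.043 without the 2 arrays, -0.084 without 18 h), MAP4K5 (-0.0051), MAPK8IP2 (-0.0014) and MAPKAPK3 (-3.9e-05) without 18 h, MAPK1IP1L (0.099 with the mean of its probe sets) and MAPK9 (-0.25 to 0.026 with 1 array left out). The array numbers set what could be seen: 2 or 3 arrays a group at single times.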
